A study of Mus musculus with 20 samples.

Results

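Cdhr2 encodes a protocadherin that joins the tips of neighbouring microvilli, and 8 genes of its adhesion complex were followed here in mouse liver. Cdhr2 was chosen by its values in the contrasts of the guides at both time points, where it stood among the most changed genes of the data, and its partners Cdhr5, Ush1c, Myo7b, Anks4b, Calml4, Vil1 and Ezr were named for their known place in or beside the complex. The members were thus selected with earlier results of these data known. Each of the 8 symbols matched a single row of the count table, which lists 55421 genes, and all 8 reached the minimum of 10 counts over the libraries. For Cdhr2 the guide contrasts are therefore given as a description without a test.

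The study used bulk RNA-seq of polyA RNA from 20 livers, 5 mice in each of 4 groups. All mice were wildtype C57BL/6 animals, labelled female, that received at 6 months of age an AAV8 virus carrying SaCas9 behind Tbg, a promoter active in hepatocytes, and a guide RNA behind the U6 promoter. The guide was directed against Hira, which encodes a chaperone that places histone H3.3 into chromatin (HIRA groups), or against the Rosa26 locus (Rosa26 groups), so the controls also carried virus and nuclease. Livers were taken 3 weeks or 6 months after the injection. The whole liver was sequenced, so cells that the Tbg promoter does not reach are part of every library, and the sex of the mice is female in the labels and in the legend of the study's figure but male in its main text.

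Microvilli are finger-like protrusions built on bundles of actin, and they are densest on the brush border of gut enterocytes and kidney tubules. There the ectodomains of CDHR2 and CDHR5 bind each other to form links between microvillar tips, and their tails are held by the scaffolds USH1C (harmonin) and ANKS4B, by the motor MYO7B and by its light chain CALML4. Villin, the product of Vil1, bundles and severs the actin of the core, and ezrin, the product of Ezr, ties the membrane to it. In the liver, hepatocytes carry microvilli on the bile canaliculus and on the surface facing the sinusoid, and cholangiocytes carry them on the surface facing the duct.

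Cdhr2 and Vil1 were the 2 members with the largest differences between the guides at 3 weeks, and the stretch just before the annotated start of each is shown for that reason. Both are on the plus strand and come from RefSeq sequences of GRCm38.p6. The first, chr13:54701213-54701460, lies directly before the annotated start of Cdhr2, and the second, chr1:74409134-74409375, before that of Vil1. Capitals mark each CpG, the dinucleotide at which mammalian DNA is methylated, and would also mark a match to any of 3 motifs searched on both strands.
Cdhr2: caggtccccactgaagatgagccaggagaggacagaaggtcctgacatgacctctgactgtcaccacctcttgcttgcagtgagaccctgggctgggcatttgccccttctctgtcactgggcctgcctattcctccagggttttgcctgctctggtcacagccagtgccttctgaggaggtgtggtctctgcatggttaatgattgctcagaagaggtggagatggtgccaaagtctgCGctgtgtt
Vil1: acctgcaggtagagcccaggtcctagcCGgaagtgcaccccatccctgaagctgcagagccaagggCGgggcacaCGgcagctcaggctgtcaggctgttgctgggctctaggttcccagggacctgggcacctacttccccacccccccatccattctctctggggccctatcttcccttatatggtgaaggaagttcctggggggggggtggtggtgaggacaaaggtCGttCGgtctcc
The motifs were CAAAGTCCA, a binding sequence of the hepatocyte regulator HNF4, TTTATG, bound by the intestinal CDX factors, and TATAAA, the TATA box. Windows of 300 bases around the start, from 250 before to 50 after it, were on hand for 7 of the 8 genes. Among 32851 such windows of mouse genes, 11.9% held TTTATG, 13.6% held TATAAA and 0.475% held CAAAGTCCA. TTTATG was found in the window of Cdhr5, and TATAAA and CAAAGTCCA were in none of the 7. Over the 300 base windows, that of Cdhr2 held 4 CpG, that of Vil1 5, that of Anks4b 3 and that of Ezr 38. Those of Cdhr5, Calml4 and Ush1c held 7, 8 and 9, and the median over all windows was 7. These matches describe the letters in the windows and no binding was measured.

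The libraries held 19916430 to 24079736 counts each, so that 1 count corresponded to 0.0391 to 0.0508 CPM (counts scaled to the TMM library size). The targeted gene, Hira, had 126, 127, 90, 104 and 87 counts in the HIRA group at 3 weeks and 128, 171, 158, 134 and 136 in the Rosa26 group, with all HIRA libraries lower, and its log2 fold change was -0.48 ± 0.14 (SE, adjusted p by edgeR = 0.197). At 6 months the Hira counts overlapped between the groups (log2 fold change -0.10 ± 0.14, adjusted p = 0.794, or -0.16 without replicate 5 of the HIRA group, adjusted p = 0.614). In replicate 5 of the HIRA group at 6 months, so labelled, Xist, which coats the silenced X, was at 9 counts against 6286 to 8436 in the other 19 libraries, while the summed Y genes Ddx3y, Eif2s3y, Kdm5d and Uty were at 2041 against 0 to 13. This goes against its label, and the 6-month values of the 8 genes are therefore given with and without it, as are those of other genes where its omission changed a call or moved a value markedly. The hepatocyte markers Alb, Ttr, Apoa1 and others (12 listed) summed to 95274 to 176450 CPM in every library.

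Transcripts of the 8 genes differed widely in level. Set per kb of exon, the Rosa26 livers at 3 weeks had 31.1 ± 4.23 CPM per kb of Cdhr5 (SD, n = 5) and 20.1 ± 1.74 of Anks4b, which were the most abundant. Ezr followed with 3.15 ± 0.406 CPM per kb. Calml4 had 0.235 ± 0.0808 and Vil1 0.178 ± 0.0687 CPM per kb, a difference smaller than their SDs. Cdhr2 had 0.0560 ± 0.0312, Myo7b 0.0269 ± 0.0143 and Ush1c 0.0120 ± 0.0144 CPM per kb. The ranges of mean ± SD overlapped between Cdhr2 and Myo7b and between Myo7b and Ush1c. The order of the lower genes depended on the scale. In the FPKM values deposited by the authors, the same livers had a mean of 1.05 for Calml4 and 0.180 for Vil1. Ush1c, at 0.0272 with 2 blank cells read as 0, lay above Myo7b at 0.00759 on that scale. In control liver the protocadherin Cdhr5 and the scaffold Anks4b were thus abundant, whereas Cdhr2, the motor Myo7b and the scaffold Ush1c had a few counts per library.

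**Figure D1:**
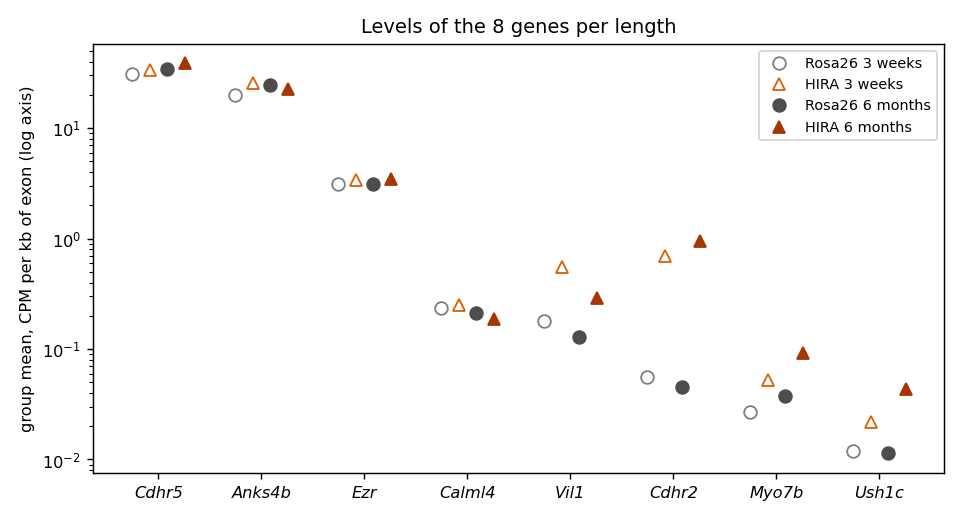
Group means (n = 5 libraries) of the 8 genes in CPM per kb of exon on a log axis, genes ordered by the Rosa26 level at 3 weeks. Circles are Rosa26 and triangles HIRA groups, open at 3 weeks and filled at 6 months. Cdhr5 and Anks4b are the highest in every group, from 20.1 CPM per kb upwards, while Cdhr2 lies at 0.0560 and 0.0456 in the Rosa26 groups and at 0.701 and 0.961 in the HIRA groups.

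Cdhr2 (ENSMUSG00000034918.8, GRCm38 chromosome 13, 54701461 to 54736662, plus strand) was at 1 to 8 counts in the control livers and at 45 to 229 counts in all HIRA livers but the library with the conflicting sex markers. At 3 weeks the Rosa26 libraries had 4, 8, 2, 3 and 7 counts in replicates 1 to 5, and the HIRA libraries had 94, 55, 63, 54 and 45. The groups stood far apart, with the lowest HIRA library above the highest control. The mean level was 0.231 ± 0.129 CPM (SD, n = 5) with the Rosa26 guide and 2.89 ± 0.871 CPM with the HIRA guide, a log2 fold change of 3.62 ± 0.68 (SE), or 12.3-fold.

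At 6 months the Rosa26 libraries had 7, 4, 1, 2 and 7 counts of Cdhr2, and the HIRA libraries had 229, 72, 77, 89 and 1. The count of 1 belongs to replicate 5, and it lay within the range of the controls, whereas the other 4 HIRA libraries were all at least 72. The mean was 0.188 ± 0.123 CPM with the Rosa26 guide and 3.97 ± 3.22 CPM with the HIRA guide, or 4.95 ± 2.73 CPM (SD, n = 4) without replicate 5. The log2 fold change was 4.36 ± 0.69 (SE), and it was 4.68 ± 0.43 without that library. Replicate 1 had the most Cdhr2 of all libraries, at 8.96 CPM, against 3.19 to 4.35 CPM in replicates 2, 3 and 4. Bulk libraries cannot tell more RNA in each cell from more cells that contain the transcript, for Cdhr2 and for every gene below.

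**Figure D2:**
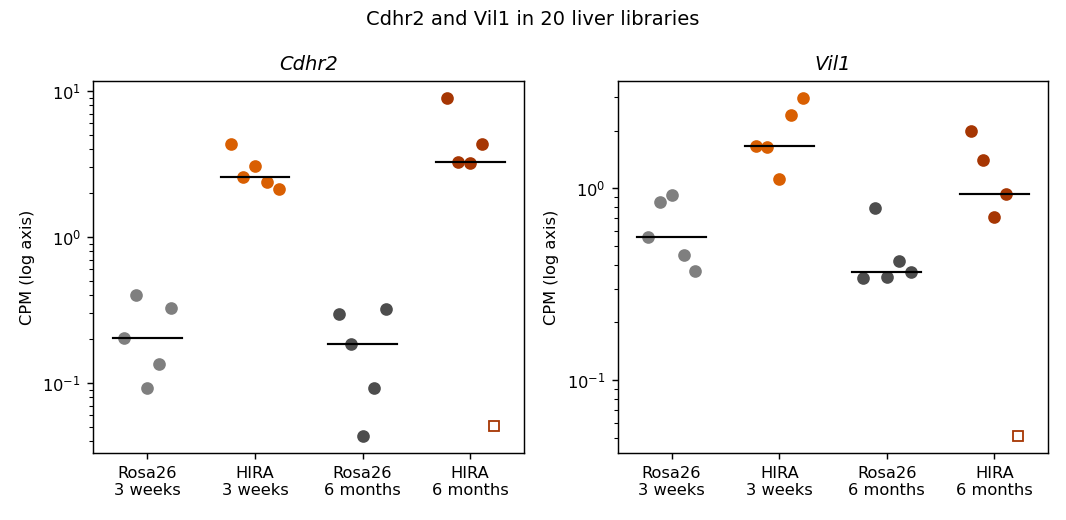
CPM of Cdhr2 and Vil1 in each of the 20 libraries, on log axes, by guide and time. Each point is a mouse, lines are group medians, and the open square is the library labelled HIRA 6 months replicate 5. At 3 weeks all HIRA points lie above all Rosa26 points for both genes, and at 6 months the open square is at 0.0508 CPM in both panels.

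The change of Cdhr2 over time was tested in the controls, whose libraries are also part of the guide contrasts. How far its guide effect differed between the times is made of the contrasts that chose the gene and is given as a description. In Rosa26 livers, Cdhr2 differed by -0.28 ± 0.87 on the log2 scale between 6 months and 3 weeks (adjusted p = 0.934). The guide effect was larger at 6 months by 0.74 ± 1.02 on the log2 scale, or by 1.05 ± 0.65 without replicate 5. Across all genes, 0.162% of the 22867 tested passed an adjusted p under 0.05 and an absolute log2 fold change above 1 in the Rosa26 time contrast, and none of the 8 members was among them. For the difference between the guide effects the share was 0% by edgeR, with 1514 genes at an unadjusted p under 0.05, and DESeq2 called 0 genes with 1235 at that unadjusted p.

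Of the 7 partners, 0 passed at either time by edgeR with all libraries, while 2 had an unadjusted p under 0.05 at 3 weeks (Vil1 and Anks4b) and 2 at 6 months (Vil1 and Ush1c). The share called among all tested genes was 0.114% at 3 weeks and 0.332% at 6 months. The median log2 fold change of the 7 partners, Cdhr2 left out, was 0.35 at 3 weeks and 0.18 at 6 months (0.33 without HIRA 6 months replicate 5), and over all tested genes it was -0.01 and 0.03. Leaving out HIRA 6 months replicate 5 brought Vil1 past the thresholds at both time points, at shares of 0.189% and 0.449% of all tested genes. At 3 weeks Vil1 also passed with DESeq2 and when only the libraries of that contrast were fitted, and in the other alternatives run no partner passed at either time.

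Vil1 (ENSMUSG00000026175.12, chromosome 1, 74409376 to 74435559, plus strand), which encodes villin, was the partner with the clearest difference. Its counts at 3 weeks were 11, 17, 20, 10 and 8 in the Rosa26 libraries and 36, 35, 23, 55 and 62 in the HIRA libraries. All HIRA libraries were above all controls, which was the case in this direction for 1.45% of the genes tested. The mean was 0.631 ± 0.244 CPM (SD, n = 5) with the Rosa26 guide and 1.96 ± 0.725 CPM with the HIRA guide, and the log2 fold change was 1.63 ± 0.47 (SE). This did not pass in the fit of all libraries (edgeR unadjusted p = 0.00235, adjusted p = 0.199). It passed without HIRA 6 months replicate 5, a library of neither group in this contrast, which enters the fit through the spread that all groups share (log2 fold change 1.63, adjusted p = 0.0378), with DESeq2 (1.64, adjusted p = 0.0412) and when only the 3-week libraries were fitted (1.63, adjusted p = 0.0245). Over all alternatives its adjusted p ranged from 0.0245 to 0.440 while the direction held.

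At 6 months Vil1 had 8, 17, 8, 9 and 8 counts in the Rosa26 libraries and 51, 31, 17, 19 and 1 in the HIRA libraries. The groups overlapped, since replicate 5 with its 1 count was the lowest of all 20 libraries, and replicate 3 of the HIRA group matched the highest control in raw counts. The log2 fold change was 1.18 ± 0.49 (adjusted p = 0.246), and without replicate 5 it was 1.48 ± 0.37 and passed (adjusted p = 0.0450). Vil1 still overlapped without that library, where 2.72% of all genes had their HIRA libraries all above all controls at 6 months, against 1.41% with all 5 HIRA libraries. The Rosa26 controls had 0.452 ± 0.192 CPM of Vil1 at 6 months, a log2 difference of -0.48 ± 0.52 from 3 weeks (adjusted p = 0.770), and the guide effect differed by -0.44 ± 0.69 between the time points (adjusted p = 0.952), or by -0.15 without replicate 5 (0.972).

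The 3' side of Vil1 shares 49 exonic bases with Usp37, a deubiquitinase gene on the other strand that had 2663 counts in all against 446 for Vil1. Whether counting used the strand is not given in the sources used here, so reads in the shared bases cannot be assigned with certainty. Usp37 itself had log2 fold changes of -0.08 ± 0.11 at 3 weeks (adjusted p = 0.928) and 0.13 ± 0.12 at 6 months (0.639). In replicate 5 of the HIRA group at 6 months it had 103 counts, the lowest of the 20 libraries, whose highest was 161. Cdhr2 overlapped no annotated gene.

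**Figure D3:**
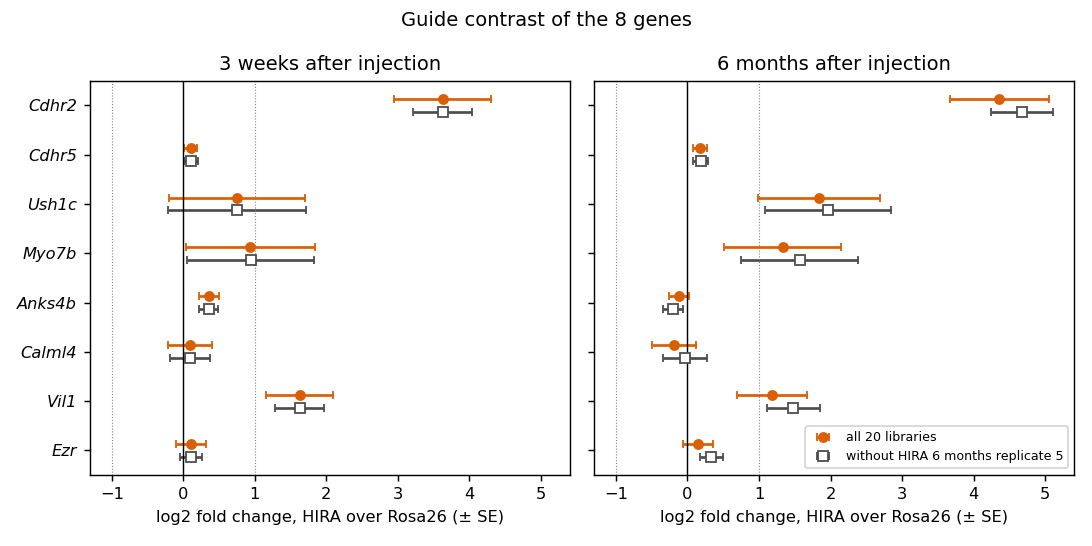
Log2 fold change of the HIRA over the Rosa26 guide with its SE for the 8 genes at 3 weeks and 6 months. Filled circles are the fit of all 20 libraries, open squares the fit without HIRA 6 months replicate 5, and dotted lines mark an absolute log2 fold change of 1. In the fit of all 20 libraries, Cdhr2 lies at 3.62 and 4.36 and Vil1 at 1.63 and 1.18, while Cdhr5, Anks4b, Calml4 and Ezr lie between -0.19 and 0.35.

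Cdhr5 (ENSMUSG00000025497.15, chromosome 7, 141269083 to 141276786, minus strand), the protocadherin that pairs with CDHR2, was abundant throughout. It had 1644 to 2024 counts in Rosa26 and 1770 to 2138 in HIRA libraries at 3 weeks, and 1776 to 2320 and 2044 to 2666 at 6 months. The groups overlapped at both times, with log2 fold changes of 0.10 ± 0.10 (adjusted p = 0.856) and 0.18 ± 0.10 (0.380). At 6 months the 5 HIRA libraries were close together at 105 ± 4.76 CPM (SD), against 93.1 ± 12.6 CPM in the controls.

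The scaffolds came next. Anks4b (ENSMUSG00000030909.6, chromosome 7, 120173858 to 120185586, plus strand) had 1442, 1772, 1560, 1691 and 1757 counts in Rosa26 and 1423, 2452, 1772, 3084 and 2088 in HIRA libraries at 3 weeks. The HIRA libraries were the more scattered, from 65.6 to 135 CPM against 72.1 to 88.5 CPM, and the log2 fold change was 0.35 ± 0.14 (adjusted p = 0.451). At 6 months it was -0.12 ± 0.14 (adjusted p = 0.764), and the difference between the time points was -0.47 ± 0.20 (unadjusted p = 0.0294, adjusted p = 0.727). Ush1c (ENSMUSG00000030838.19, chromosome 7, 46195350 to 46238503, minus strand) had only 39 counts in all 20 libraries. They were 0, 1, 1, 3 and 0 in Rosa26 and 2, 3, 1, 2 and 1 in HIRA libraries at 3 weeks, and 0, 0, 4, 1 and 0 against 7, 2, 9, 0 and 2 at 6 months. The log2 fold changes of 0.75 ± 0.96 and 1.84 ± 0.85 did not pass (adjusted p = 0.909 and 0.303). A predicted gene on the other strand, Gm9860, shares 120 exonic bases with Ush1c and had 6 counts.

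The motor Myo7b, an unconventional myosin that moves towards the tips, had 2 to 7 counts in the Rosa26 libraries at 3 weeks and 3 to 17 in the HIRA libraries. At 6 months the Rosa26 libraries had 2, 2, 0, 1 and 22 and the HIRA libraries 7, 5, 51, 6 and 3. A single library in each 6-month group therefore held most of its counts, and the log2 fold change of 1.33 ± 0.82 (adjusted p = 0.467) became -0.03 when the HIRA library with 51 counts, replicate 3, was left out. At 3 weeks it was 0.94 ± 0.91 (adjusted p = 0.865). Calml4 (ENSMUSG00000032246.14, chromosome 9, 62858080 to 62875921, plus strand), its calmodulin-like light chain, had 11 to 28 counts in the 3-week libraries and 7 to 25 in the 6-month libraries. Its log2 fold changes were 0.09 ± 0.30 and -0.19 ± 0.31 (adjusted p = 0.974 and 0.835).

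Ezr (ENSMUSG00000052397.8, chromosome 17, 6738041 to 6782784, minus strand) had 164 to 252 counts in Rosa26 and 190 to 284 in HIRA libraries at 3 weeks, with a log2 fold change of 0.11 ± 0.21 (adjusted p = 0.956). At 6 months it had 244, 240, 294, 153 and 223 counts with the Rosa26 guide and 280, 235, 354, 322 and 96 with the HIRA guide. Replicate 5 was again the lowest, at 4.88 CPM against 10.7 to 15.7 CPM in the other HIRA libraries. The log2 fold change was 0.14 ± 0.21 (adjusted p = 0.811) with that library and 0.33 ± 0.16 (0.267) without it. Without that library the 6-month log2 fold changes of the other partners were 0.18 for Cdhr5, -0.21 for Anks4b, 1.96 for Ush1c, 1.57 for Myo7b and -0.04 for Calml4, and none passed (adjusted p from 0.245 to 0.966).

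**Figure D4:**
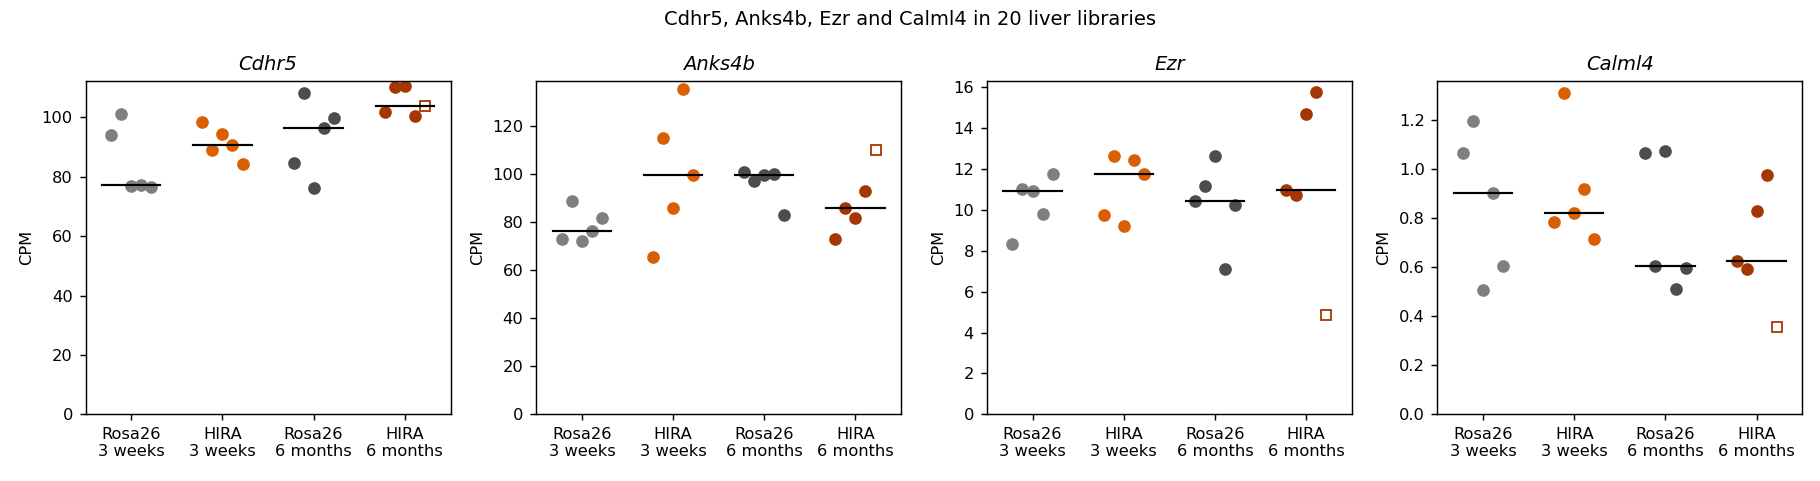
CPM of Cdhr5, Anks4b, Ezr and Calml4 in each library by guide and time, on linear axes that start at 0. Points are mice, lines are group medians, and the open square is the library labelled HIRA 6 months replicate 5. Guide groups overlap in all 4 genes at both times, and the open square is the lowest of all points for Ezr and Calml4.

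The library labelled HIRA 6 months replicate 5 thus had the lowest CPM of all 20 libraries for Vil1, Ezr and Calml4 and the 2nd lowest for Cdhr2. For Cdhr5 and Anks4b it came 17th and 18th from the lowest, so the members did not all shift one way in it. Its cholangiocyte markers (12 genes, among them Krt19, Epcam and Spp1) summed to 79.1 CPM, the lowest of its group, whose range was 79.1 to 178 CPM, and its Krt19 and Epcam counts of 18 and 25 were the lowest of all libraries. The part of the sex of the animal, of the makeup of the tissue or of the guide in these levels was not tested.

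Markers of other cells that carry the complex were read beside these results. The summed cholangiocyte markers ranged from 103 to 146 CPM in Rosa26 and from 92.2 to 155 CPM in HIRA libraries at 3 weeks, and from 83.5 to 149 and 79.1 to 178 CPM at 6 months. Of these 12 genes, 0 were called at either time by edgeR, with 0 and 1 at an unadjusted p under 0.05, and their medians were -0.03 and 0.19 on the log2 scale. Without HIRA 6 months replicate 5, 3 of them had an unadjusted p under 0.05 at 6 months, with 0 called, and the median was 0.36. Of the 12 enterocyte markers, Cdx1 was at 0 in all 20 libraries, Cdx2 and Sis had at most 1 count in any library, and the summed level of 27.2 to 87.2 CPM came largely from Fabp2, a fatty acid binding protein with 583 to 2016 counts in every library. Of the 6 enterocyte markers tested, 0 were called at either time by edgeR (1 and 1 at an unadjusted p under 0.05). Their median log2 fold changes were 1.21 and 0.78, with 5 and 4 of the 6 above 0, and most rest on few counts. Alpi, an intestinal alkaline phosphatase, had 2 and 9 counts in a pair of HIRA libraries at 3 weeks and 0 in all others, and Cdh17, an intestinal cadherin, had at most 6 counts in any library and log2 fold changes of 1.77 and 2.10 (adjusted p = 0.778 and 0.349). Fabp2 had log2 fold changes of -0.35 and -0.38 (adjusted p = 0.762 and 0.502), and -0.58 at 6 months without replicate 5. Krt20, a keratin of the gut lining that was named after its values were seen, had 11, 29, 28, 43 and 0 counts in the HIRA libraries at 6 months and 3, 1, 7, 4 and 5 in the controls. As with Cdhr2, replicate 5 had the least of its group. It had at most 1 count in any library at 3 weeks. Its log2 fold change at 6 months was 2.45 ± 0.69 (adjusted p = 0.0926), and 2.76 without replicate 5, where it passed (0.0123) as the 1 called marker of this list. Proximal tubule markers (10 genes, with Kap at 0 in all libraries) summed to at most 1.22 CPM. Pancreatic acinar markers (10 genes, with Ptf1a at 0 in all libraries) summed to 5.83 to 11.6 CPM, largely from Cela1 with 118 to 223 counts. Cela2a had 2 to 35 counts and the other acinar markers at most 4 in any library. The part of other cell types in the level of Cdhr2 was not tested.

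The other genes of microvilli and of the apical surface were described by lists. The microvillus list held actin bundlers, tip proteins, linkers and motors, and 19 of its 21 genes were tested. None was called at either time by edgeR (1 and 5 at an unadjusted p under 0.05), and the medians were 0.12 and 0.11 on the log2 scale. The bundlers Espn and Pls1 had log2 fold changes of 0.15 and 1.03 at 3 weeks and of 0.80 and 0.91 at 6 months, all short of the threshold (adjusted p = 0.962, 0.730, 0.231 and 0.531). The tip proteins Eps8 and Eps8l2 had 0.04 and -0.09 at 3 weeks (adjusted p = 0.988 and 0.956) and 0.51 and 0.41 at 6 months (0.359 and 0.286). Without HIRA 6 months replicate 5 the 6-month values were 0.95 for Espn, 1.19 for Pls1, 0.70 for Eps8 and 0.31 for Eps8l2, and none passed. Baiap2l1, an I-BAR protein that shapes membranes and was named after its values were seen, passed the adjusted p but not the fold threshold at 6 months, at 0.53 ± 0.12 (adjusted p = 0.0377, and 0.0639 without replicate 5).

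Apical trafficking, the list of genes that carry cargo to the apical surface, had 0 of 13 genes called at either time by edgeR (0 and 2 at an unadjusted p under 0.05). Its values stayed between -0.25 and 0.19 on the log2 scale, with Myo5b, the motor of apical recycling vesicles, at -0.16 and -0.25 and Rab11a at 0.06 and 0.02. The bile canaliculus list had 0 of 19 called (0 and 2 at an unadjusted p under 0.05), with medians of 0.06 and -0.09. Abcb11, the bile salt export pump, had log2 fold changes of 0.07 and -0.19 and Abcc2, a pump for conjugates, 0.19 and 0.07, the latter turning to -0.08 without HIRA 6 months replicate 5. Abcb4, which moves phosphatidylcholine into bile, reached 0.55 ± 0.14 at 6 months with all HIRA libraries above the controls (adjusted p = 0.0577). Atp7b, the copper pump, named after its values were seen, had a log2 fold change of -0.51 at 6 months (SE 0.10, adjusted p = 0.0149), below the fold threshold. Its counts were 629 to 844 with the HIRA guide and 964 to 1139 with the Rosa26 guide. The means at 3 weeks and 6 months were 33.5 and 33.4 CPM with the HIRA guide, and 38.1 and 47.6 CPM with the Rosa26 guide. In the controls this was a log2 difference of 0.32 ± 0.10 between the times (adjusted p = 0.141).

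The Usher list holds the inner ear counterparts of the complex, in which CDH23 and PCDH15 form the tip links of hair bundles. Of its 9 genes tested, 0 were called at 3 weeks and 1 at 6 months (0 and 3 at an unadjusted p under 0.05). The share called among all tested genes at 6 months was 0.332%. The medians of the list were -0.03 and 0.36 on the log2 scale. The gene called was Adgrv1, an adhesion receptor of hair bundle ankle links, with 46, 56, 75, 41 and 62 counts in the HIRA and 15, 36, 37, 27 and 15 in the Rosa26 libraries. Its groups did not overlap, which was the case in this direction for 1.41% of the genes tested, and its log2 fold change was 1.11 ± 0.28 (adjusted p = 0.0493). That call was lost in 17 of the 20 fits that left out 1 library, replicate 5 of the HIRA group included (1.01, adjusted p = 0.0710). The number called in this list was also 0 in 5 of the 9 other alternatives. Cdh23 and Pcdh15 themselves had group means of at most 0.199 CPM. Their log2 fold changes were -1.24 and -0.90 at 3 weeks (adjusted p = 0.739 and 0.907) and 0.88 and 1.32 at 6 months (0.521 and 0.567), and Myo7a, the ear counterpart of Myo7b, had 0.13 and 0.26.

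Among other cadherins, 0 of 19 genes were called at 3 weeks (0 at an unadjusted p under 0.05) and 1 at 6 months (4 at an unadjusted p under 0.05). The share called among all tested genes at 6 months was 0.332%. The gene called was Celsr2, a cadherin of planar cell polarity, with 72, 29, 34, 20 and 26 counts in the HIRA and 14, 24, 8, 15 and 13 in the Rosa26 libraries. Its log2 fold change was 1.23 ± 0.30 (adjusted p = 0.0412). The means at 3 weeks and 6 months were 1.60 and 1.57 CPM with the HIRA guide, and 1.26 and 0.670 CPM with the Rosa26 guide. In the controls this was a log2 difference of -0.91 ± 0.30 between the times (adjusted p = 0.184). The number called in this list ranged from 0 to 2 when single libraries were left out and changed in 13 of those 20 fits. It also changed in 5 of the 9 other alternatives, the replicate block among them. Without HIRA 6 months replicate 5, Cdh1, which encodes E-cadherin, joined Celsr2 (1.28, adjusted p = 0.0374), against 1.04 ± 0.37 (0.165) with all libraries. Cdh1 had 1116, 435, 1341, 486 and 162 counts in the HIRA livers at 6 months and 216, 473, 178, 212 and 549 in the controls, so the groups overlapped widely. Its mean in the Rosa26 livers was 36.3 CPM at 3 weeks and 14.8 CPM at 6 months. This was a log2 difference of -1.30 ± 0.37 (adjusted p = 0.121, or 0.0390 without HIRA 6 months replicate 5). With the HIRA guide the means were 42.8 and 30.2 CPM.

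**Figure D5:**
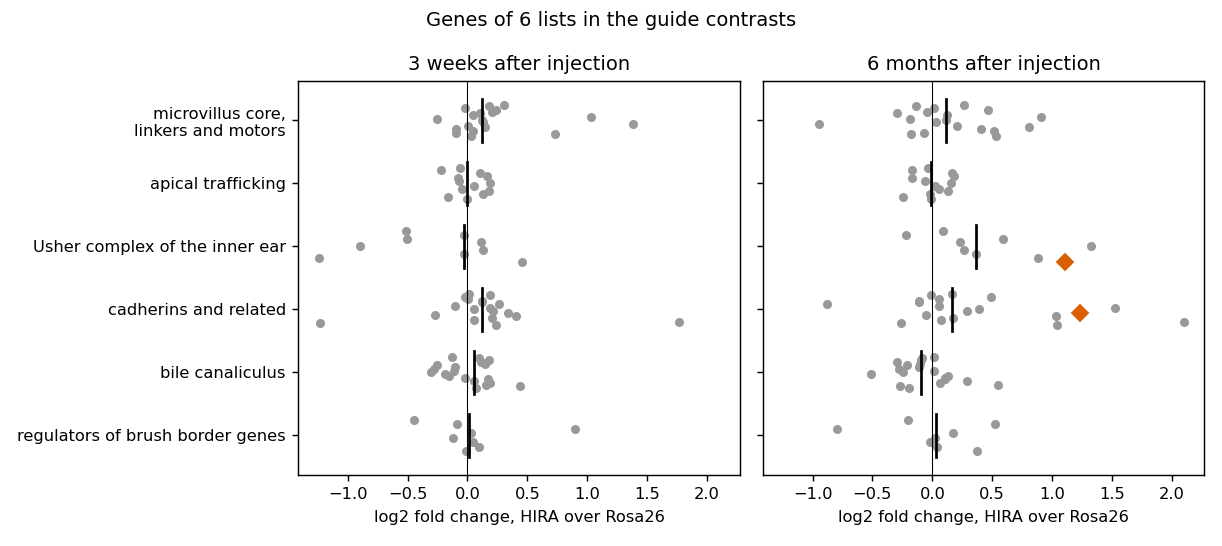
Log2 fold change of the HIRA over the Rosa26 guide for the tested genes of 6 lists at 3 weeks and 6 months. Each point is a gene, the black bar is the median of the list, and diamonds are genes past both thresholds. Adgrv1 and Celsr2 at 6 months are the called genes, and the list medians lie between -0.09 and 0.36.

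The last list held transcription factors that drive brush border genes. Of 8 tested, 0 were called at either time by edgeR (0 and 1 at an unadjusted p under 0.05). Hnf4a, a master regulator of hepatocytes and enterocytes, had 690 CPM in HIRA and 675 CPM in Rosa26 livers at 3 weeks, with log2 fold changes of 0.03 ± 0.11 and 0.17 ± 0.11 (adjusted p = 0.975 and 0.475). Without HIRA 6 months replicate 5, the number called at 6 months was 0 for this list and for the microvillus, trafficking, canaliculus and Usher lists. Hnf4g, at a mean of 0.058 to 0.162 CPM in the groups, had log2 fold changes of 0.90 and -0.80.

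The genes around Cdhr2 on chromosome 13 were examined for a change shared along the chromosome. The nearest tested genes before it were Rnf44, Faf2 and Cltb, at 7.55, 37.4 and 90.1 kb, and those after it were Tspan17, Unc5a and Hk3, at 52.7, 213 and 269 kb. At 3 weeks their log2 fold changes lay between -0.21 and 0.15, and at 6 months between -0.36 and 0.34, or between -0.09 and 0.43 without HIRA 6 months replicate 5, and none passed the test with all libraries (adjusted p from 0.184 to 0.998). Rnf44, the closest, had 0.15 ± 0.09 and 0.19 ± 0.09.

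Likeness to Cdhr2 was measured across the libraries. Over the 20 libraries and 12903 genes with a mean of at least 1 CPM, those with the highest Pearson r of log2 CPM were Itih5 (0.893), which encodes a protein that binds hyaluronan, Krt23 (0.881), a keratin, Pip5k1c (0.864), a lipid kinase, Slc27a1 (0.859), a fatty acid transporter, and Ptprs (0.856), a receptor phosphatase. These values are a description, since the points form clusters by guide and the genes were picked for their r. In the 10 HIRA libraries r was 0.829 for Itih5, 0.785 for Krt23, 0.673 for Pip5k1c, 0.957 for Slc27a1 and 0.791 for Ptprs, and without replicate 5 it was -0.311, 0.649, 0.566, 0.614 and 0.367. Within the 10 Rosa26 libraries the same r ranged from 0.113 for Slc27a1 to 0.508 for Itih5. Among the 7 partners, Vil1 had the highest r, at 0.763 over 20 libraries, but 0.797 in the 10 HIRA libraries became -0.155 in the 9 without replicate 5, so within the HIRA livers that likeness rests on this library. Cdhr5 had 0.404 and Anks4b -0.08 over the 20 libraries.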

How the data were processed

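Gene expression in 20 mouse livers was analysed from the gene counts that the authors deposited, which are whole numbers without normalization. Per the labels and the study's methods, reads were aligned to mm10 with STAR, and the labels list HTSeq and Cufflinks where the methods name HOMER for counting. The authors also deposited FPKM values, with blank cells, which were read as 0 and used only as an alternative (limma on log2 of FPKM plus 1 or plus 0.1). Genes with at least 10 counts were kept (22867 of 55421). Counts were tested with edgeR 4.0.16 by quasi-likelihood (glmQLFit, glmQLFTest), with TMM normalization, a mean per group over all 20 libraries and Benjamini-Hochberg adjustment over all genes tested. A gene was called at an adjusted p under 0.05 and an absolute log2 fold change above 1, as in the study. Adjusted p-values are from this test unless another tool is named. Log2 CPM used a prior count of 2. Alternatives were DESeq2 1.42.0, RLE normalization, other filters on low counts, only the libraries of a contrast, a replicate block and leaving out each library. The test was checked on simulated data. R 4.3.3, limma 3.58.1, Python 3.11.15, numpy 2.4.6, pandas 2.3.3 and matplotlib 3.10.9 were used. Coordinates are GRCm38, 1-based, from GENCODE M21, in which Ush1c and Myo7b were matched without the version of their identifier.

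Members and lists were chosen with earlier results of these data known. From the lists, genes past both thresholds in a guide contrast were named and otherwise the first few in written order, besides the 3 nearest tested genes on each side of Cdhr2 and the 5 most alike. Genes named outside this rule are the edges of a range or are said to have been named after their values were seen, as were Krt20, Cdh1 and the marker genes. The labels call the samples of a group independent replicates, and the total count per library limits the precision of the members with few counts. Some genes of the lists are not reported here by name.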

Additional observations from a re-analysis of the deposited data

Results flagged for a closer look

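Single libraries that stood apart from the other 4 of their group were looked for in 32 groups (8 genes in 4 groups), on log2 CPM, by the gap to the nearest library as a share of the group's range. Such a gap was found in 5, and chance gives about 1 in 20 groups. Cdhr2 in replicate 5 of the HIRA group at 6 months was at -2.81 log2 CPM, against 1.72 to 3.18 in the others. Myo7b was high in replicate 3 of the HIRA group at 6 months, at 1.14 against -2.03 to -1.38, and in replicate 5 of the Rosa26 group at 6 months, at 0.14 against -3.45 to -2.43. Anks4b was low in replicate 5 of the Rosa26 group at 6 months, at 6.37 against 6.60 to 6.66. Vil1 was high in replicate 2 of the Rosa26 group at 6 months, at -0.18 against -1.21 to -0.97. No partner's guide effect passed the test of a difference between the time points.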

How the results depend on the processing

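The direction of Cdhr2 and Vil1 in the guide contrasts held under every alternative run. Cdhr2 was chosen on these contrasts, so its values are a description. Its log2 fold change at 3 weeks was 0.62 with FPKM values, 2.26 with the smaller pseudocount and 3.42 to 3.90 when single libraries were left out. At 6 months it was 4.36 with only the libraries of the contrast and 0.75 with FPKM values. A pseudocount of 1 exceeds the FPKM values of Cdhr2 in the controls, which compresses its change. The number of members called at 3 weeks was 2 with DESeq2 or only the contrast's libraries, 0 with FPKM values at either pseudocount and 0 to 2 when single libraries were left out, and these counts include the chosen Cdhr2, so they are a description. It was 0 without any of replicates 1, 2, 3, 4 or 5 of the Rosa26 group or 1, 2, 4 or 5 of the HIRA group at 3 weeks, and 2 without replicate 5 of the HIRA group at 6 months. Calls over the whole table moved too. They numbered 3 to 15 in the fits with 0 members called, against 26 (0.114%) with all libraries and 43 (0.189%) without replicate 5 of the HIRA group at 6 months. At 6 months the number of members called was 0 with only the contrast's libraries and with FPKM values at a pseudocount of 1. It was 1 to 2 when single libraries were left out, with 2 without replicate 5 of the HIRA group.

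The genes called at 3 weeks over the whole table numbered 26 by edgeR, 64 by DESeq2 and 4 with FPKM values, and at 6 months 76, 127 and 14, or 0 with only the contrast's libraries. Deviations of same-numbered libraries from their group means correlated at r from -0.31 to 0.33 over 15 pairs of groups and numbers, with 6 over 0.1. Replicate 3 had 0.30, 0.30 and 0.33 in the 3 pairs of groups and replicate 2 had 0.12, 0.06 and 0.18, but not every pair exceeded 0.1, so the numbers were not taken to pair the libraries. With the replicate block Cdhr2 had log2 fold changes of 3.61 and 4.18, the number of partners called was 0 at both times, the Usher list had 1 call and the cadherin list had 0 at 6 months.

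Some partner values changed sign. Ezr between the times in Rosa26 livers was 0.0087 with DESeq2, 0.0087 with RLE, 0.0115 with filterByExpr and -0.0889 to 0.10 with single libraries left out, and its difference between the guide effects was -0.10 to 0.23. Ush1c over time in Rosa26 livers was 0.0401 and 0.27 with FPKM values and -1.64 to 0.75 with single libraries left out. Calml4 ranged from -0.0735 to 0.24 at 3 weeks and from -0.29 to 0.0105 over time. With all libraries Myo7b had 1.33 at 6 months, 0.43 over time and 0.39 in the difference, and with single libraries left out it ranged from -0.0327 to 3.35, from -1.59 to 0.75 and from -0.97 to 2.41. It turned negative without HIRA 6 months replicate 3 at 6 months and in the difference, and without Rosa26 6 months replicate 5 over time. The causes were not tested. Ush1c, Myo7b and the control level of Cdhr2 rest on a few counts per library.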
